A study of Mus musculus with 6 samples.

Results

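10 genes that detect foreign or misplaced nucleic acid, or that attach and remove the small protein ISG15, were followed in mouse liver after a week of a plant extract. They were taken by symbol from a table of 22899 genes, 17738 of which had values, and all 10 had 1 row each: Ddx58, Ifih1, Dhx58, Zbp1, Tlr3, Isg15, Usp18, Uba7, Herc6 and Xaf1. The mice belonged to the outbred ICR stock. The extract group received the ethyl acetate fraction of a hydrosoluble Chebulae Fructus (Terminalia chebula fruit) extract, 1 g/kg daily by gavage for 1 week, and the water group received water at 10 ml/kg by the same route over the same time. Each group held 3 libraries of poly(A)-selected RNA from whole liver, called extract 1 to 3 and water 1 to 3. The labels give no sex or age and do not state outright that every library is its own animal, so the spread behind each p-value is that of the libraries and may be technical. Values are taken as FPKM, which count fragments per length of transcript relative to the library total. In whole tissue, a change in how many cells of a type are present and a change in RNA per cell cannot be told apart. On the first principal component of all tested genes, extract 3 (2.06) lay between the other extract libraries (14.2 and 26.8) and water (-23.1 to -3.81). On the second component water 1 stood apart, at -29.6, while the other 5 libraries lay between 2.74 and 11.9, and it had the lowest water value for 7 of the 10 genes. Test results for genes of the set are therefore also given without extract 3, and some counts also without water 1. Pathway lists, correlations between genes, markers and ratios are given over all 6 libraries, except where stated. Extract 3 was singled out from these same data. Leaving out the extract library nearest to water widens the difference between the groups, so the results without it are no separate support.

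RIG-I (encoded by Ddx58) and MDA5 (Ifih1) are cytosolic helicases that bind viral or misplaced double-stranded RNA and signal through the mitochondrial adaptor MAVS, and LGP2 (Dhx58) modulates them. TLR3 detects double-stranded RNA in endosomes, and ZBP1 binds nucleic acid in the Z conformation and can start necroptosis. Their signals induce interferons, which act on a promoter element called ISRE and raise the same sensors again. ISG15 is a ubiquitin-like protein that is joined to other proteins by the E1 enzyme UBA7, the E2 enzyme UBE2L6 and, in mouse, the ligase HERC6, and is removed by the protease USP18, which also damps signalling at the type I interferon receptor. XAF1 is an interferon-induced partner of the apoptosis inhibitor XIAP.

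RefSeq promoter windows (GRCm38.p6, 250 bases before to 50 bases after the start site that the table uses) were matched for 7 of the 10 genes. For Xaf1 and Tlr3 that site lies 168 and 695 bases inside the gene as RefSeq bounds it, and for the other 5 it is the gene's first base. The letters GAAANNGAAA, the core of an ISRE, were searched on both strands, and overlapping matches were all counted. They occurred in 3.44% of the 32851 promoter windows in the table and in 3 of the 7 windows here. Isg15 had 3 overlapping matches, which began 78, 72 and 66 bases before its start. Ddx58 had 1 match on the opposite strand, 2 bases after its start, and Ifih1 had 1, 32 bases after its start. Xaf1, Uba7, Herc6 and Tlr3 had no match to these letters in this window. The letters TTCNNNGAA, the core of the interferon-gamma activated element GAS, were found in 0 of the 7 windows and in 8.3% of all windows. The 3 windows with a match are printed 5′ to 3′ on the gene's strand, with matches to the ISRE core in capitals, to show where the match lies, and that of Xaf1 stands beside them as a window without one.
Isg15, chr4:156200769-156201068, minus strand: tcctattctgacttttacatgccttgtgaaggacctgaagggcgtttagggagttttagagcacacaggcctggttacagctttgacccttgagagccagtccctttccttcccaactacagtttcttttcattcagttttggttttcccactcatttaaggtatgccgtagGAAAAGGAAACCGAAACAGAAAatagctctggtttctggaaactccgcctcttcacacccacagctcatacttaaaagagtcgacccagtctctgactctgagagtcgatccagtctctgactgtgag
Ddx58, chr4:40239776-40240075, minus strand: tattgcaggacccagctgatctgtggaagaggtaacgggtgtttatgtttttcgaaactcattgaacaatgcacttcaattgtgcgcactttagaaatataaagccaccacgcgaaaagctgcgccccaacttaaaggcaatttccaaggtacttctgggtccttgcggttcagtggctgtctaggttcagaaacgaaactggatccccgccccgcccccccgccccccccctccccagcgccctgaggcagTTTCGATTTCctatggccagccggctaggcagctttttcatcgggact
Ifih1, chr2:62646206-62646505, minus strand: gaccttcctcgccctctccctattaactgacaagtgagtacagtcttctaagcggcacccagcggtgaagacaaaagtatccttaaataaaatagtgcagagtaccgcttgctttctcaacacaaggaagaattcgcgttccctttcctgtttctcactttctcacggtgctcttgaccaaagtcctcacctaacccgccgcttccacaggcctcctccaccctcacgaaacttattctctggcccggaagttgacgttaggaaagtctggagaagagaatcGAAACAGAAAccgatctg
Xaf1, chr11:72301379-72301678, plus strand: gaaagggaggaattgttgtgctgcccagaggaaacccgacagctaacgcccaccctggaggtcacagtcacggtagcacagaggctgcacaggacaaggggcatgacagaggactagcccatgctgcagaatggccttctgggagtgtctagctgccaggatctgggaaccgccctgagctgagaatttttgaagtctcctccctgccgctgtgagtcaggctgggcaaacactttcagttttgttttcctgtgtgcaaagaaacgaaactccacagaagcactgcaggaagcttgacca

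Every one of the 10 genes had a higher mean in the extract livers than in the water livers, with folds of the means between 1.57 for Uba7 and 6.03 for Isg15. In extract 1 and extract 2 all 10 lay above every water library. This held for all 9 of them that were tested, as for 15.4% of the 10282 genes tested. Extract 3 was below both extract 1 and extract 2 for all 10 genes. For 6 genes (Ddx58, Dhx58, Tlr3, Isg15, Usp18 and Xaf1) the 3 extract values did not overlap the 3 water values, as for 8.11% of the 17146 genes above 0 in any library, and for Ifih1, Zbp1, Uba7 and Herc6 they did. After median centring of the libraries, or quantile normalization, the groups stayed apart for 3 of the 9 tested genes (Ddx58, Usp18 and Xaf1) in place of 5, and for 7.13% and 7.67% of all tested genes after centring and after quantile normalization. No gene of the set passed limma's test at a Benjamini-Hochberg adjusted p below 0.05 over the 10282 genes tested, of which 5 (0.0486%) passed. The median log2 difference of the 10 genes, on the log2(FPKM + 1) scale, was 1.02, against 0.01 over all genes with values.

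**Figure D1:**
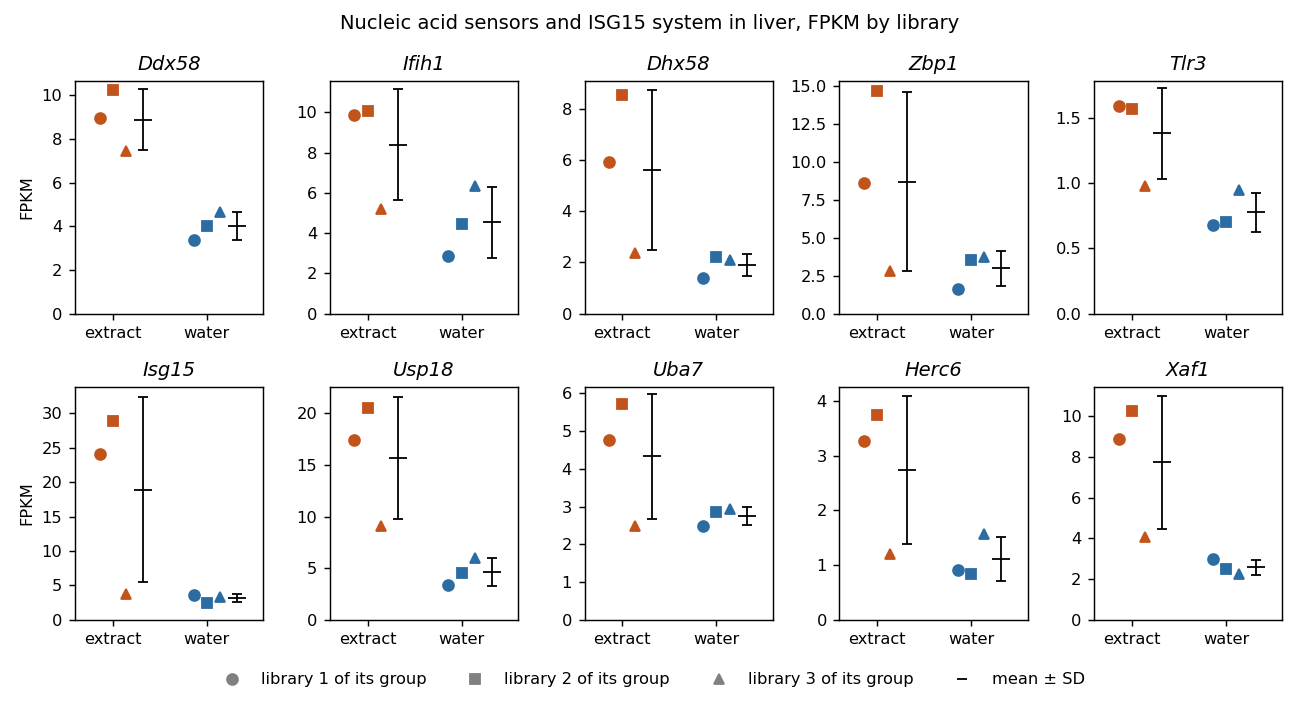
FPKM (vertical axes, each starting at 0) of the 10 genes in the 3 extract and 3 water libraries, with the mean and SD beside the points. Extract 1 and extract 2 lie above all water libraries in every panel, and extract 3 (triangle) lies within the water range for Ifih1, Zbp1, Uba7 and Herc6.

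Only genes that reached 1 FPKM in 3 or more libraries were tested. Tlr3 did not reach this, with no water library at 1 FPKM, and Herc6 reached it only through the extract libraries and water 3, so its entry into the test depended on its higher level there. In a fit without the filter, which held all 10, 8 were higher at an unadjusted limma p below 0.05, where 5.58% of 17146 genes were; 0 of the 10 and 0% of all genes passed after adjustment. In the filtered fit 7 of the 9 tested were higher at that unadjusted p, against a background of 6.50%, and 5 of 9 did not overlap, against 10.0%. Without extract 3, 5 of the 9 passed the adjusted threshold by limma, against 0.477% of genes (49), and these were Isg15, Xaf1, Usp18, Dhx58 and Ddx58. Extract 3 was the lowest extract library for all 10 genes, so leaving it out raised each of their fold changes by construction. For the other 4 the limma adjusted p was then 0.0634 for Herc6, 0.0955 for Zbp1, 0.0960 for Uba7 and 0.190 for Ifih1. The count of 7 was 4 when extract 1, extract 2 or water 1 was left out, and the share of all tested genes was then 4.45%, 4.50% and 9.46% in that order.

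Among the cytosolic RNA sensors, Ddx58 was the gene whose groups lay furthest apart relative to their spread. It had 8.98, 10.27 and 7.44 FPKM in extract 1 to 3, against 3.39, 4.00 and 4.67 FPKM in water 1 to 3. The lowest extract library stood clear of the highest water library, and extract 3 was the lowest of its group. The means were 8.90 ± 1.42 and 4.02 ± 0.64 FPKM (SD, n = 3 libraries each), and the log2 fold change was 0.98 (standard error, SE, 0.15; limma adjusted p = 0.0882). By unadjusted p Ddx58 stood at place 25 of the 10282 genes, and by size of the log2 fold change at place 100. With library weights its adjusted p in limma was 0.0289, and without extract 3 it was 0.0462; over all alternatives it lay between 0.0289 and 0.366.

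Ifih1, the MDA5 gene, had 9.87, 10.08 and 5.22 FPKM in the extract libraries, against 2.84, 4.45 and 6.36 FPKM in the water libraries. Extract 3 lay below water 3, so the groups overlapped. The means were 8.39 ± 2.75 FPKM in extract and 4.55 ± 1.76 FPKM in water livers, a log2 fold change of 0.76 (SE 0.29, limma adjusted p = 0.426). The water libraries themselves spread widely for this gene, with a ratio of highest to lowest of 2.24.

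Dhx58, the LGP2 gene, had 5.91, 8.54 and 2.35 FPKM in the extract libraries, against 1.41, 2.2 and 2.08 FPKM in the water libraries. Extract 3 exceeded the highest water library by a small margin only, and extract 2 was the highest. The log2 fold change was 1.07 (SE 0.35, limma adjusted p = 0.335), and without extract 3 it was 1.5 (limma adjusted p = 0.0384; range over all alternatives 0.0384 to 0.675).

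Tlr3, the endosomal sensor, was the lowest of the 10 genes in both groups. It had 1.59, 1.57 and 0.98 FPKM in the extract libraries, against 0.68, 0.70 and 0.95 FPKM in the water libraries. The groups did not overlap, but extract 3 and water 3 were almost equal. In the unfiltered fit the log2 fold change was 0.41 (SE 0.14, limma adjusted p = 0.439). At this level the added pseudocount of 1 shrinks the fold change, and the ratio of the means was 1.78.

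Zbp1, the Z-nucleic acid sensor, had 8.61, 14.66 and 2.82 FPKM in the extract libraries, against 1.64, 3.55 and 3.76 FPKM in the water libraries. Extract 1 and extract 2 were well above water, and extract 3 lay inside the water range. The means of 8.70 ± 5.92 FPKM in extract and 2.98 ± 1.17 FPKM in water livers gave a log2 fold change of 1.11 (SE 0.48), whose 95% interval ran from -0.01 to 2.23 (limma adjusted p = 0.491). Extract 2 was 1.70 times extract 1, the widest step between these libraries among the 10 genes.

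In the ISG15 system, the modifier itself had the largest difference of the set. Isg15 had 24.10, 28.96 and 3.72 FPKM in the extract libraries, against 3.61, 2.5 and 3.31 FPKM in the water libraries. Extract 1 and extract 2 were several-fold above every other library, while extract 3 was next to water 1. The mean of extract 1 and extract 2 was 8.45 times the water mean, and extract 3 was 1.18 times it. The log2 fold change was 1.89 (SE 0.62, limma adjusted p = 0.344), and by size it stood at place 20 of 10282. Without extract 3 it was 2.74 (SE 0.17, limma adjusted p = 0.00577), and the adjusted p over all alternatives lay between 0.00577 and 0.706.

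Usp18, which removes ISG15, had 17.44, 20.53 and 9.06 FPKM in the extract libraries, against 3.34, 4.53 and 5.99 FPKM in the water libraries. The groups were separate, with extract 3 between the other extract libraries and water. The means were 15.7 ± 5.93 and 4.62 ± 1.33 FPKM in extract and water livers, a log2 fold change of 1.52 (SE 0.30, limma adjusted p = 0.151). Without extract 3 the limma adjusted p was 0.0278, and over all alternatives it lay between 0.0274 and 0.435.

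The conjugating enzymes had smaller fold changes than Isg15 and Usp18. Uba7, the E1 enzyme, had 4.77, 5.72 and 2.49 FPKM in the extract libraries, against 2.49, 2.86 and 2.93 FPKM in the water libraries. Extract 3 equalled the lowest water library, water 1. The log2 fold change was 0.45 (SE 0.23), with a 95% interval from -0.08 to 0.99 (limma adjusted p = 0.564). Herc6, the ligase, had 3.27, 3.74 and 1.21 FPKM in the extract libraries, against 0.91, 0.84 and 1.57 FPKM in the water libraries. Its groups overlapped because extract 3 lay below water 3, and the log2 fold change was 0.77 (SE 0.29, limma adjusted p = 0.408).

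Xaf1 had 8.87, 10.27 and 4.07 FPKM in the extract libraries, against 2.98, 2.51 and 2.24 FPKM in the water libraries. The groups were separate, and extract 3 stood above water by more than the water libraries differed among themselves. The means were 7.74 ± 3.25 FPKM in extract and 2.58 ± 0.37 FPKM in water livers, a log2 fold change of 1.21 (SE 0.28, limma adjusted p = 0.201). With library weights the limma adjusted p was 0.0438 and without extract 3 it was 0.0151, within a range of 0.0151 to 0.511 over all alternatives.

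**Figure D2:**
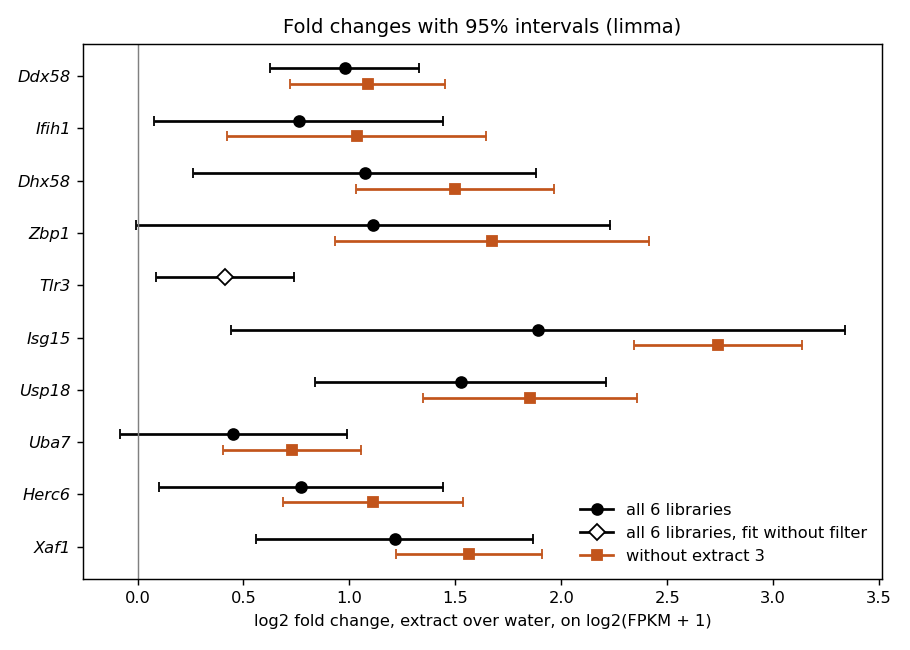
Log2 fold changes (extract over water, on log2(FPKM + 1), horizontal axis) with 95% intervals from limma for the 10 genes, in black for all 6 libraries and in orange without extract 3. Isg15 is at 2.74 without extract 3, against 1.89 with all 6 libraries, and Tlr3 (open diamond) comes from the fit without a filter.

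The order of levels, which FPKM allow because they are per length, differed between the groups. In the extract livers Isg15 had the highest mean FPKM, followed by Usp18, Ddx58, Zbp1, Ifih1, Xaf1, Dhx58, Uba7, Herc6 and Tlr3. In the water livers the order was Usp18, Ifih1, Ddx58, Isg15, Zbp1, Uba7, Xaf1, Dhx58, Herc6 and Tlr3. Most neighbours in these orders differed by less than their spread: of 9 neighbouring pairs, the gap exceeded both SDs for 2 in extract (Usp18 over Ddx58, and Herc6 over Tlr3) and for 3 in water (Ddx58 over Isg15, Xaf1 over Dhx58, and Dhx58 over Herc6).

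Extract 3 did not lie at the same relative height for all genes. Counted as a share of the shift of extract 1 and extract 2 from the water mean on the log2(FPKM + 1) scale, extract 3 showed 69.7% for Ddx58, 46.8% for Usp18, 32.5% for Xaf1 and 29.5% for Tlr3. It showed 20.8% for Ifih1, 14.7% for Dhx58, 7.71% for Herc6 and 7.26% for Isg15, and it lay below the water mean for Zbp1 (-0.731%) and Uba7 (-14.5%). The median over the 10 genes was 17.7%. Among all 1579 tested genes in which extract 1 and extract 2 exceeded every water library the median was 65.8%, and among the 370 of those with a shift at least as large as that of Tlr3 it was 36.4%. Extract 3 itself lay above every water library for 6 of the 10 genes. Of the 9 tested genes of the set it did so for 5, against 65.4% of the 1579 tested genes and 57.0% of the 370.

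**Figure D3:**
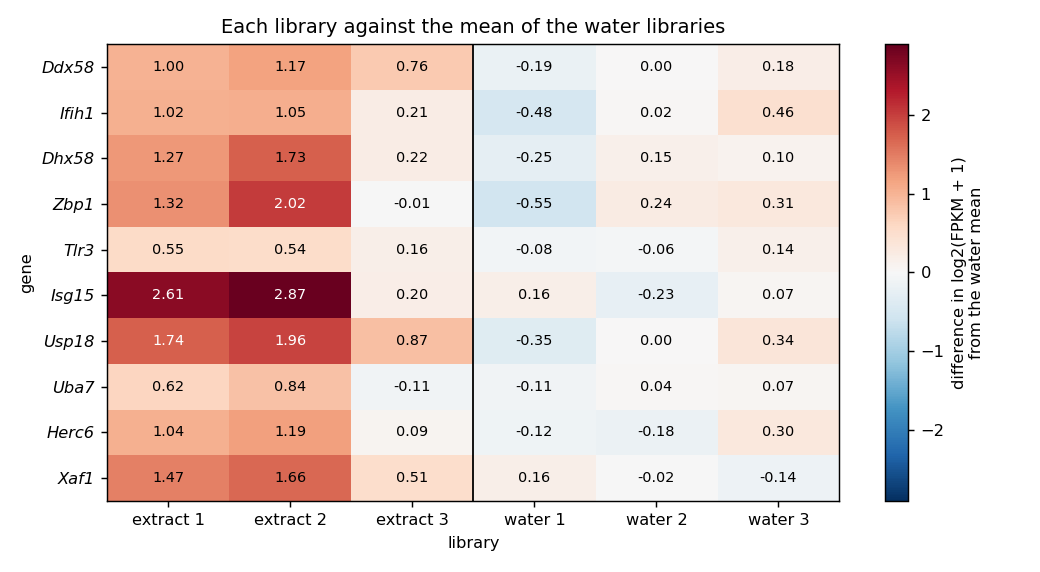
Difference of each library from the mean of the water libraries in log2(FPKM + 1), by gene (rows) and library (columns), with the value written in each cell. Extract 1 and extract 2 are positive for all 10 genes, while extract 3 runs from -0.11 for Uba7 to 0.87 for Usp18.

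Ratios between genes of the set within a library do not depend on how that library was scaled. The ratio of Uba7 to Isg15 FPKM was 0.198, 0.198 and 0.669 in the extract libraries, against 0.690, 1.14 and 0.885 in the water libraries, so each extract library had less E1 transcript per modifier transcript than any water library. The mean log2 ratio, extract minus water, was -1.58 (two-sided exact permutation p = 0.1, the smallest that 3 against 3 libraries allow; 0.4 after Benjamini-Hochberg adjustment over 6 ratios). Herc6 to Isg15 was 0.136, 0.129 and 0.325 in extract, against 0.252, 0.336 and 0.474 in water, with overlap through extract 3 (exact permutation p = 0.2, adjusted 0.4). Usp18 to Isg15 was 0.724, 0.709 and 2.44 in extract, against 0.925, 1.81 and 1.81 in water, and extract 3 held the highest ratio of all libraries (exact permutation p = 0.8, adjusted 0.8). Among the sensors, the log2 ratios to Ddx58 differed between extract and water by -0.25 for Ifih1, 0.25 for Dhx58 and -0.33 for Tlr3 (exact permutation p of 0.4, 0.6 and 0.2; adjusted 0.6, 0.72 and 0.4).

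**Figure D4:**
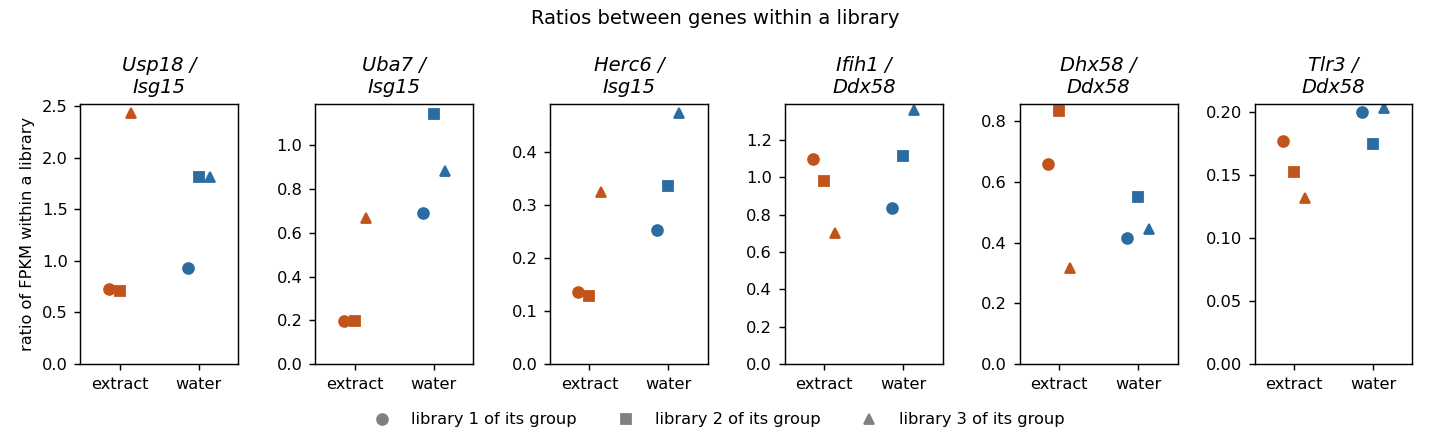
Ratio of FPKM of paired genes within each library (vertical axes from 0), extract libraries on the left and water libraries on the right of each panel. Of the 6 ratios, the groups are separate for Uba7 to Isg15 and overlap for the other 5.

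The other genes of these pathways were read from lists of their parts, and no gene in them passed limma's adjusted threshold. Of 29 tested genes of the RNA sensing pathway, 7 were higher and 0 lower at an unadjusted limma p below 0.05, where 6.50% of all genes were higher. Of all 10282 tested genes, 1061 had such a p in either direction, and 668 of these were higher. The list's median log2 fold change was 0.07, against 0.03 over all tested genes. The transcription factor gene Irf7, which drives interferon genes downstream of the sensors, had 49.51, 116.47 and 26.29 FPKM in the extract libraries, against 14.93, 12.57 and 14.28 FPKM in the water libraries. All extract values lay above water, with a log2 fold change of 1.87 (limma adjusted p = 0.212). Adar, an editor of double-stranded RNA, averaged 5.92 ± 1.51 FPKM in extract and 3.15 ± 0.32 FPKM in water livers (limma adjusted p = 0.224). The RNA-activated kinase gene Eif2ak2 averaged 5.63 ± 1.31 and 3.27 ± 0.60 FPKM in extract and water (limma adjusted p = 0.279), and the helicase gene Dhx36 had 4.97 FPKM in each extract library, against 3.17 to 3.97 FPKM in water (limma adjusted p = 0.249). The signal relays had small fold changes. Log2 fold changes were -0.12 for the adaptor gene Mavs and -0.04 for the factor gene Irf3 (limma adjusted p of 0.883 and 0.969). They were 0.17 for the ligase gene Trim25 and 0.35 for the kinase gene Tbk1 (limma adjusted p of 0.851 and 0.572). Of these only Tbk1 had groups without overlap, at 7.92 to 8.18 FPKM in extract and 4.22 to 7.51 FPKM in water. The extract libraries lay wholly above water for 10.0% of all tested genes.

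Of 21 tested genes of the DNA sensing and necroptosis pathway, 5 were higher at the unadjusted p, against 6.50% of all tested genes, and 0 lower. Their median log2 fold change was 0.05. The DNA sensor gene Cgas had 0.29 to 0.59 FPKM in extract and 0.33 to 0.46 FPKM in water livers, and its adaptor Tmem173 (STING) had 0.80 to 1.02 FPKM in extract and 0.56 to 0.88 FPKM in water livers; both were too low to be tested. Ripk3, the kinase that ZBP1 engages, had 0.47 to 0.76 FPKM in extract and 0.38 to 0.91 FPKM in water, and was also not tested. Its substrate gene Mlkl averaged 1.91 ± 0.46 FPKM in extract and 1.26 ± 0.15 FPKM in water livers (limma adjusted p = 0.461). The exonuclease gene Trex1 averaged 9.05 ± 0.89 and 6.46 ± 0.61 FPKM in extract and water (limma adjusted p = 0.264), the nucleotide hydrolase gene Samhd1 6.51 ± 1.51 and 4.04 ± 0.18 FPKM (limma adjusted p = 0.276), and Ifi204, of a family of DNA-binding proteins, 3.61 ± 1.91 and 1.18 ± 0.34 FPKM (limma adjusted p = 0.323).

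Over 16 tested genes of the endosomal receptor pathway the median was 0.04. At the unadjusted p, 3 of the 16 were higher, against 6.50% of all tested genes, and 0 lower. These were Irf7, the protease gene Ctss, at 21.3 ± 8.76 FPKM in extract and 9.53 ± 0.87 FPKM in water livers, and Irf5, at 2.66 ± 0.59 and 1.73 ± 0.34 FPKM (limma adjusted p of 0.211 for Ctss and 0.400 for Irf5). Ticam1, the adaptor gene through which TLR3 signals, had a log2 fold change of -0.22 (limma adjusted p = 0.816). Of 20 tested genes related to ISG15 and other ubiquitin-like steps, 3 were higher, against 6.50% of all tested genes, and 0 lower. Their median was 0.13. Ube2l6, the E2 enzyme gene of ISG15, had 42.31, 49.24 and 27.08 FPKM in the extract libraries, against 19.76, 21.53 and 33.51 FPKM in the water libraries. Its groups overlapped, as those of Uba7 and Herc6 did (limma adjusted p = 0.467). Parp9 averaged 18.6 ± 4.94 and 11.5 ± 2.22 FPKM in extract and water (limma adjusted p = 0.380), and Herc3, a relative of Herc6, 1.90 ± 0.23 and 1.17 ± 0.24 FPKM (limma adjusted p = 0.319).

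Of 14 tested genes around XIAP and apoptosis, 0 passed limma's adjusted threshold and 0 had an unadjusted p below 0.05 in either direction. For 4 of the 14 every extract library lay above every water library, against 10.0% of all tested genes. Tnfsf10 averaged 1.33 ± 0.12 FPKM in extract and 0.997 ± 0.049 FPKM in water livers (limma adjusted p = 0.528). Diablo averaged 9.64 ± 0.84 and 8.09 ± 0.30 FPKM in extract and water (limma adjusted p = 0.540). Birc5, a mitotic protein of the same family as XIAP, averaged 1.12 ± 0.50 FPKM in extract and 2.66 ± 1.47 FPKM in water livers (limma adjusted p = 0.498). Xiap itself had a log2 fold change of 0.24 (limma adjusted p = 0.570). Of 21 interferon genes listed, 18 were blank in the table in every library, Ifnb1 among them, and the other 3 (Ifnk, Ifnz and Ifng) did not exceed 0.09 FPKM in any library. Over 14 tested genes of interferon receptor signalling the median was 0.21. At the unadjusted p, 3 of the 14 were higher, against 6.50% of all tested genes, and 0 lower. Among them were Socs3, a feedback inhibitor, at 4.46 ± 0.60 FPKM in extract and 1.93 ± 0.38 FPKM in water livers (limma adjusted p = 0.0882), and Il10rb, at 5.52 ± 0.16 FPKM in extract and 4.44 ± 0.36 FPKM in water livers (limma adjusted p = 0.458). Ifnar1, a chain of the type I interferon receptor, had a log2 fold change of 0.07 (limma adjusted p = 0.930). Some genes stand in more than 1 list, so the counts are not independent.

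**Figure D5:**
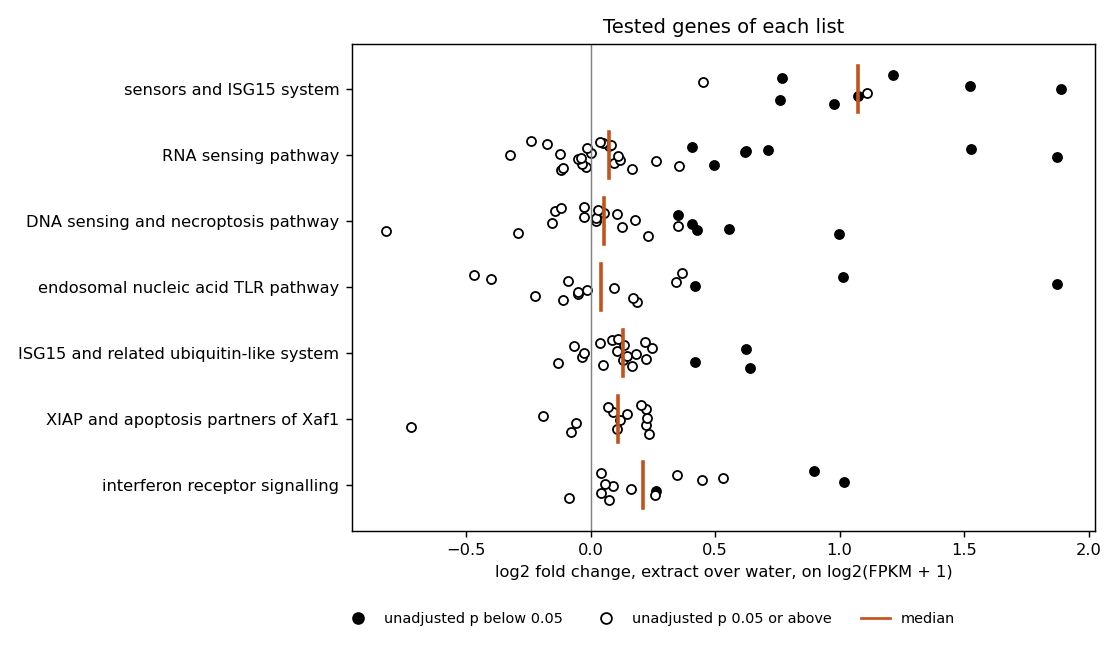
Log2 fold changes (extract over water, on log2(FPKM + 1), horizontal axis) of the tested genes of each list, filled where the unadjusted limma p is below 0.05, with the list's median as an orange line. The median of the 9 tested sensor and ISG15 genes is 1.07, while the medians of the other lists lie between 0.04 and 0.21.

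Across the 6 libraries the genes of the set ran close to each other. Pearson's r between a gene's log2(FPKM + 1) and the mean standardised level of the other 9 ran from 0.911 for Ddx58 to 0.984 for Dhx58. Among genes outside the set, the 8 with the highest r to the set's mean course over 6 libraries included Ogfr (0.996), Shisa5 (0.993), Parp14 (0.991), Irgm1 (0.991), Hao1 (0.990), Adar (0.988) and Samhd1 (0.988). All points share the same 6 libraries and their scaling, so these values describe likeness only. The closest, Ogfr, had 16.16, 17.12 and 12.41 FPKM in extract and 11.43, 11.80 and 12.27 FPKM in water, a log2 fold change of 0.33, which is smaller than that of any gene in the set. Hao1, a peroxisomal oxidase gene of hepatocytes, had 91.64, 103.48 and 62.89 FPKM in extract, against 52.64, 53.49 and 65.85 FPKM in water.

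Hepatocyte markers were abundant in all libraries, as the liver label states: the 8 listed, albumin among them, summed to 66843 to 77480 FPKM in extract and 80467 to 85993 FPKM in water. Most of each sum came from albumin (Alb), at 45371 to 58259 FPKM in extract and 62160 to 71236 FPKM in water. At an unadjusted limma p below 0.05, 1 of the 8 (Serpina1c) was higher and 0 lower, where 6.50% of all tested genes were higher. Markers of other cells moved with the set in part. The 14 Kupffer cell and macrophage markers, all tested, summed to 232.91, 350.44 and 256.44 FPKM in extract, against 172.86, 177.19 and 151.06 FPKM in water. For 7 of the 14 every extract library lay above every water library, as for 10.0% of all tested genes. At an unadjusted limma p below 0.05, 9 of the 14 were higher and 0 lower, where 6.50% of all tested genes were higher. Their median log2 fold change was 0.56. Extract 3 had a higher Kupffer sum than extract 1, whereas all 10 genes of the set were lower in extract 3 than in extract 1. The 8 monocyte markers summed to 15.82, 23.85 and 8.14 FPKM in extract, against 10.56, 9.18 and 8.37 FPKM in water. Most of each sum came from Plac8, with 11.22, 18.42 and 4.36 FPKM in extract and 7.43, 6.69 and 5.08 FPKM in water. Extract 3 was the lowest library for Plac8 and for the sum. Of the 8 markers, 2 had every extract library above every water library, as did 8.11% of the genes above 0 in any library. The 6 listed plasmacytoid dendritic cell markers summed to 143.21, 242.03 and 117.06 FPKM in extract and 95.06 to 121.69 FPKM in water, nearly all of it from Bst2, which interferon also induces; Siglech did not exceed 0.25 FPKM, and Cox6a2 was at 0. T cell, NK cell, B cell and conventional dendritic cell markers summed to at most 3.7 FPKM in any library, and neutrophil markers to between 8.17 and 11.1 FPKM. Sinusoidal endothelial markers summed to 109.12 to 132.17 FPKM in extract and 128.08 to 153.43 FPKM in water. Erythroid markers summed to 831 to 1017 FPKM in extract and 1218 to 3439 FPKM in water. Most of each erythroid sum came from Hba-a1, at 454 to 582 FPKM in extract and 688 to 2003 FPKM in water. Of the 7 tested erythroid markers, 4 were lower and 0 higher at an unadjusted limma p below 0.05. Alas2 had 40.82, 63.02 and 24.57 FPKM in extract, against 10.26, 29.52 and 31.93 FPKM in water. The 5 cholangiocyte markers summed to 31.9, 25.63 and 18.35 FPKM in extract, against 19.44, 12.28 and 17.26 FPKM in water, so that extract 1 and extract 2 were above water and extract 3 within its range, and most of the sum came from Spp1. The 8 stellate cell markers summed to 109.46 to 139.45 FPKM in extract and 89.31 to 121.18 FPKM in water. Their median log2 fold change was 0.09. Of the 8, 0 were higher or lower at an unadjusted limma p below 0.05, where 6.50% of all tested genes were higher. Single markers differed in course. The collagen gene Col3a1 had 16.42, 17.14 and 6.25 FPKM in extract, against 5.27, 8.32 and 12.82 FPKM in water. Reln had 3.97, 4.71 and 4.74 FPKM in extract, against 3.82, 4.78 and 6.43 FPKM in water. The part of these cells in the differences of the set was not tested.

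The genes lie apart in the genome, by RefSeq on GRCm38. Chromosome 4 carries Ddx58 (gene ID 230073) at 40203777 to 40239825 and Isg15 (100038882) at 156199424 to 156200818. Chromosome 2 carries Ifih1 (71586) at 62595618 to 62646255 and Zbp1 (58203) at 173206612 to 173218959. Chromosome 6 carries Usp18 (24110) at 121245906 to 121270917 and Herc6 (67138) at 57580992 to 57665136. Chromosome 11 carries Dhx58 (80861) at 100694884 to 100704271 and Xaf1 (327959) at 72301461 to 72313733. Chromosome 8 carries Tlr3 (142980) at 45395665 to 45411075, and chromosome 9 carries Uba7 (74153) at 107975567 to 107984056. All 10 are annotated as protein-coding. RefSeq also places a long non-coding RNA across part of Ifih1 (Gm39839), Dhx58 (Gm38483), Isg15 (Gm46878) and Usp18 (Gm44148) and a pseudogene inside Herc6 (Gm19244). The labels name no strand-specific counting, so reads of these overlaps cannot be assigned by strand.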

How the data were processed

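Liver poly(A) RNA was sequenced in 3 extract and 3 water libraries, grouped by the treatment label. Per the submitters' processing notes the tools were HISAT2 2.0.4, Bowtie2 2.2.5, RSEM 1.2.12 and DESeq2 1.4.5 on GRCm38, with no roles given. The deposited table names no unit; its values, made by the authors, were read as FPKM because the sums differed between libraries (517984 to 583245) while value times longest GENCODE transcript length came to 118.1% to 120.8% of fragments in each. FPKM carry no read numbers, so depth and counting error are unknown, and a few very abundant transcripts can move the values of the rest. 5161 of 22899 rows were blank in all libraries and 592 were at 0 in all; 11 symbols turned into dates were restored by gene ID.

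The 10282 genes that reached 1 FPKM in 3 or more libraries were fitted with limma 3.58.1 (R 4.3.3) on log2(FPKM + 1), extract against water, with a trended prior and Benjamini-Hochberg adjustment over all tested genes. Fold changes are on that scale and understate those of low genes. Single ratios used an exact permutation test over 20 assignments. Alternatives covered the pseudocount, filters, scaling, prior, library weights, a replicate block and left-out libraries, for which the tested genes were kept fixed. Named genes were all 10 members, of each pathway list the 4 with the smallest p plus fixed pathway genes, and the 8 genes most like the set. Members, lists and markers were chosen with earlier results of these data known. 1 gene that the rule names is not reported here. The authors' deposited group means (FPKM) were not used.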

Additional observations from a re-analysis of the deposited data

How the results depend on the processing

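All 154 log2 fold changes of the set that were fitted under the alternatives kept their direction, and 11 of them passed the adjusted threshold. Tlr3 was fitted only without the filter and with a mean of 1 FPKM as the filter. Scaling and left-out libraries were therefore not tried for it. The filters, the robust prior and the replicate block leave a fold change unchanged by construction. All alternatives draw on the same 6 libraries, so the 154 values are not independent. Over all genes, 5 passed limma; 2 did with a pseudocount of 0.1, a mean of 1 FPKM as the filter, or quantile normalization, 0 with no filter, median centring or the replicate block, and 133 with library weights. Genes of the set that passed numbered 3 with library weights, and 0 under every other alternative with all 6 libraries. Leaving out 1 library gave 0 to 49 genes called, 0 to 5 of the set called and 4 to 9 of the set higher at an unadjusted p below 0.05, against 4.04% to 9.46% of all tested genes. Their median log2 fold change then ran from 0.74 to 1.5, around a value of 1.07. The count with no overlap between groups was 3 after median centring or quantile normalization (7.13% and 7.67% of all tested genes) and 5 to 9 when 1 library was left out (12.8% to 20.4%). Leaving out extract 3 and water 1 together, an alternative chosen after seeing the data, gave 57 genes called, 3 of the set called and 9 without overlap, as for 27.1% of all tested genes. The cause of these changes was not tested. The log2 ratio of Dhx58 to Ddx58 was 0.25 with all libraries and ran from -0.035 (without extract 2) to 0.66 (without extract 3) when 1 library was left out.

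The labels number the libraries of both groups 1 to 3, but same-numbered libraries did not deviate together (correlations from -0.177 to 0.117; 2 of 6 libraries correlated best with their own number). With the replicate block, 8 of the 9 tested genes of the set were higher at an unadjusted p below 0.05, against 5.60% of all tested genes, the lowest adjusted p among them was 0.154, and 0 genes were called. Read depth is unknown, so the counting error of each gene is not known.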
